A study of Mus musculus with 7 samples.

Results

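The genes described here were 40 components of the DNA replication and cell cycle machinery, measured in primary hepatocytes from mice with intact or deleted *Wdr6*. They were taken from the read-count table by gene symbol, from a list of genes of this function whose rule uses no measured value, although it was drawn up with earlier results of these data known, and were treated apart as 28 G1/S genes and 12 G2/M genes. All 40 were found among the 14819 rows of the table, and all 40 passed the filter on low counts, as did 14779 rows in all. The question was whether hepatocytes without WDR6 differed from WT hepatocytes in the transcripts that carry a cell from G1 through DNA synthesis into mitosis.

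WDR6 is a WD-repeat protein that the study examined in insulin-driven hepatic lipogenesis. WDR6-WKO mice are whole-body knockouts made with CRISPR–Cas9 by deletion of exon 2 of *Wdr6*, and the controls carried the intact gene. Hepatocytes of male mice were freed by two-step collagenase perfusion, kept in William's E medium with 10% serum overnight and sequenced without further treatment, as 4 WT libraries and 3 WDR6-WKO libraries. The methods name C57BL/6J mice of 7 weeks as the default and state no separate age for the mice that gave these hepatocytes, nor a day of isolation. The design text of the series speaks of independent experiments, but the labels tie no library to a mouse or a preparation, so the p-values measure the spread between these libraries. Because the knockout is in every tissue, it includes every cell type that a liver preparation can hold.

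A cell that leaves quiescence first makes D-type cyclins, which activate CDK4 and CDK6. These kinases phosphorylate the retinoblastoma protein and release E2F factors, which switch on cyclin E and the genes of DNA synthesis, and a later programme driven by B-MYB, FOXM1 and the MuvB complex switches on the mitotic genes. Adult hepatocytes in the intact liver are mostly quiescent, but they can re-enter the cycle after loss of liver tissue, and isolation and plating are known to move them from quiescence towards G1.

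The promoters of the G1/S and G2/M genes differed in the letters they held. RefSeq promoters on GRCm38.p6, each 250 bases before and 50 bases after the start of a gene, were found for 32 of the 40 genes, 22 of them G1/S and 10 G2/M. No entry was found for *Ccnd1*, *Ccnd2*, *Mcm4*, *Ccne2*, *Gins2*, *Rfc2*, *Aurkb* and *Ccna2*. A gene was counted for a motif when any of its promoters held the letters. An E2F-type core (TTGGCGC or TTCGCGC, either strand) was present for 31.8% of the G1/S and 30% of the G2/M genes. The share was 7.86% of the 10569 genes tested that had a promoter entry. A CHR core (TTTGAA or TTCGAA, either strand) is the element through which MuvB complexes are known to bind mitotic genes. It was present for 13.6% of the G1/S and 80% of the G2/M genes, against 16.8%. A CCAAT box, the letters CCAAT on either strand, was present in 59.1% and 90%, against 42.8%. Both a CHR core and a CCAAT box were held by 3 of 22 G1/S genes, 8 of 10 G2/M genes and 8.18% of the genes tested. The core and the box could lie in different promoters of the same gene. The E2F-type core and the CCAAT box can overlap, as in *Ccnb1*, where GCGCCAAT holds both. These matches describe letters only.

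The 250 bases before the start of *Mcm6*, *Mki67* and *Top2a* are shown because *Mcm6* carries the E2F-type core repeatedly, *Top2a* carries repeated CHR cores and CCAAT boxes without an E2F-type core, and *Mki67*, the called G2/M gene, carries all of them. Each is written 5′ to 3′ on the minus strand of GRCm38.p6, with E2F-type cores, CHR cores and CCAAT boxes in capitals. The stretches are chr1:128359706-128359955 for *Mcm6*, chr7:135716380-135716629 for *Mki67* and chr11:99024190-99024439 for *Top2a*.
Mcm6: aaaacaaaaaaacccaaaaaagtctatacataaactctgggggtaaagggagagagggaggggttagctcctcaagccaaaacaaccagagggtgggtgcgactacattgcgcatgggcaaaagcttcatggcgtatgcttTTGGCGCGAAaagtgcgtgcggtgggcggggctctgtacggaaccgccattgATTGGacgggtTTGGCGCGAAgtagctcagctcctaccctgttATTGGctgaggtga
Mki67: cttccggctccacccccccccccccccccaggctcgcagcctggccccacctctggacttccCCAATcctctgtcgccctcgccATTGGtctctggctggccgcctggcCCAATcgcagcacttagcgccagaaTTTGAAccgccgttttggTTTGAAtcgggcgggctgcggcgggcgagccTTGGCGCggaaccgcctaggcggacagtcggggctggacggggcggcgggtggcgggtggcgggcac
Top2a: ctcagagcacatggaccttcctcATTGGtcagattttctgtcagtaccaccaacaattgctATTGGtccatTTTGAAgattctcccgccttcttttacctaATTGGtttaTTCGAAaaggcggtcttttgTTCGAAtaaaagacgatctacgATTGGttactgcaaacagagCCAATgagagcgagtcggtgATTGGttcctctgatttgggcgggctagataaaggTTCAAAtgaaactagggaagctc

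*Wdr6* was first compared between the genotypes. Its level was 49.0, 40.6, 40.9 and 45.6 CPM in WT, in the order of the replicate numbers used throughout, and 2.58, 2.32 and 2.23 CPM in WDR6-WKO. CPM are counts relative to a fixed total of the TMM-scaled library. Every WDR6-WKO library was thus far below every WT library, with a log2 fold change of -4.20 (SE 0.114, adjusted p = 3.44e-12, edgeR). The libraries held 17816913 to 23668940 counted reads, and the biological coefficient of variation was 7.40%, so that at this depth the spread between replicates rather than counting error set the precision of most values below. WDR6-WKO replicate 3 stood apart from its group. The chi-square per gene between its counts and those of replicates 1 and 2 was 14.3 and 15.9, against 5.14 between replicates 1 and 2 and 3.80 to 8.23 among the WT libraries. Counts of calls that changed by more than 1.5 times without this library are given both ways.

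Hepatocyte markers were present at high levels in both genotypes. *Alb*, which encodes albumin, stood at 7366 ± 730.4 CPM (SD, n = 4) in WT and 6480 ± 362.9 CPM (SD, n = 3) in WDR6-WKO, and *Apob*, which encodes apolipoprotein B, at 5845 ± 479.3 and 5429 ± 762.8 CPM. Some genes of the differentiated hepatocyte were low already in WT, with *Pck1* at 1.47 ± 0.586 CPM and *Cyp2e1* at 18.0 ± 1.35 CPM. Of 13 hepatocyte markers tested, 7 were lower in WDR6-WKO and 0 higher at an adjusted p under 0.05 (edgeR). Of all genes tested, 12.8% passed in either direction. All 13 markers had a negative log2 fold change, and *Alb* (-0.18) and *Apob* (-0.11) were not called. Those called were *Pck1* (-1.73), *Apoa1* (-0.69), *Cps1* (-0.69), *Fgb* (-0.45), *Asgr1* (-0.43), *Cyp2e1* (-0.34) and *Hnf4a* (-0.27). The sum over the list lay between 15900 and 18860 CPM in WT and between 14307 and 16340 CPM in WDR6-WKO. The tested markers of other liver cells were counted in every library and are set beside the cell cycle genes further on.

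Cell cycle transcripts were abundant in both genotypes. To compare genes of different size, CPM were divided by the length of the longest annotated transcript, and each gene was ranked among the 14687 genes with a length. In WT the median percentile of the 40 genes was 83.2, from 42.8 to 97.4. *Pcna*, the sliding clamp that holds DNA polymerase on its template, was the most abundant at 145.02 CPM per kilobase (percentile 97.4), followed by *Rrm2*, a subunit of ribonucleotide reductase, at 114.2 CPM per kilobase (percentile 96.5). The least abundant were the licensing factor *Cdc6*, at 5.08 CPM per kilobase, and *Gins2*, a part of the active helicase, at 5.57 CPM per kilobase. The G2/M genes lay between percentiles 68.5 (*Bub1*) and 91.2 (*Top2a*), so transcripts of mitosis as well as of DNA synthesis were well represented before any comparison of genotypes. In bulk RNA, fewer cells of a type and less RNA per cell cannot be told apart, and this holds for every difference given here.

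Of the 40 genes, 3 (7.5%) passed an adjusted p of 0.05 in edgeR's quasi-likelihood test, against 12.8% of all genes tested. *Ccnd1* and *Ccnd2*, which encode cyclins D1 and D2, were higher in WDR6-WKO, and *Mki67*, which encodes the proliferation antigen Ki-67 that coats mitotic chromosomes, was lower. Higher calls made up 6.65% and lower calls 6.18% of all genes tested. Both higher calls were among the 28 G1/S genes (7.14%), and the lower call was among the 12 G2/M genes (8.33%). By the thresholds of the study's methods, which ask for a log2 fold change of 0.35 in size and an unadjusted p below 0.05, only *Ccnd1* was called, against 10.4% of all genes tested. The share of the list that was called did not exceed the share of all genes in either count.

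Most of the machinery differed little between the genotypes. An unadjusted p under 0.05 was reached by 7 of the 40 genes, the 3 called ones with *Cdt1*, *Cdk4*, *Cdk6* and *Aurka*, against 4160 of the 14779 genes tested. DESeq2 and limma-voom called the same 3 genes as edgeR, so that 7 of 9 roles held 0 calls by any of these tools. The median log2 fold change was 0.02 over the G1/S genes (18 positive, 10 negative) and -0.02 over the G2/M genes (4 positive, 8 negative), against 0.01 over all genes tested. For 34 of the 37 genes not called, the 95% interval of the fold change lay within 0.35 on the log2 scale in either direction, which is the size the study's thresholds ask for. The exceptions were *Ccne2*, *Bub1* and *Rfc4*, and over all 37 the intervals reached from -25.6% to 30.1%. WT and WDR6-WKO libraries fell into separate ranges of CPM for 7 genes (17.5%), 5 higher and 2 lower, against 23.5% of all genes tested. The summed level of the G1/S genes was 2600 ± 56.3 CPM (SD, n = 4) in WT and 2686 ± 28.3 CPM (SD, n = 3) in WDR6-WKO, and that of the G2/M genes was 1393 ± 45.8 and 1321 ± 91.6 CPM. The G1/S sums did not overlap (2522 to 2649 and 2657 to 2714 CPM), and the G2/M sums did (1354 to 1456 and 1249 to 1424 CPM). The called genes are part of these sums. Their means in WT and WDR6-WKO were 117.5 and 171.3 CPM (*Ccnd1*), 41.4 and 51.9 CPM (*Ccnd2*) and 344.5 and 289.4 CPM (*Mki67*).

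**Figure D1:**
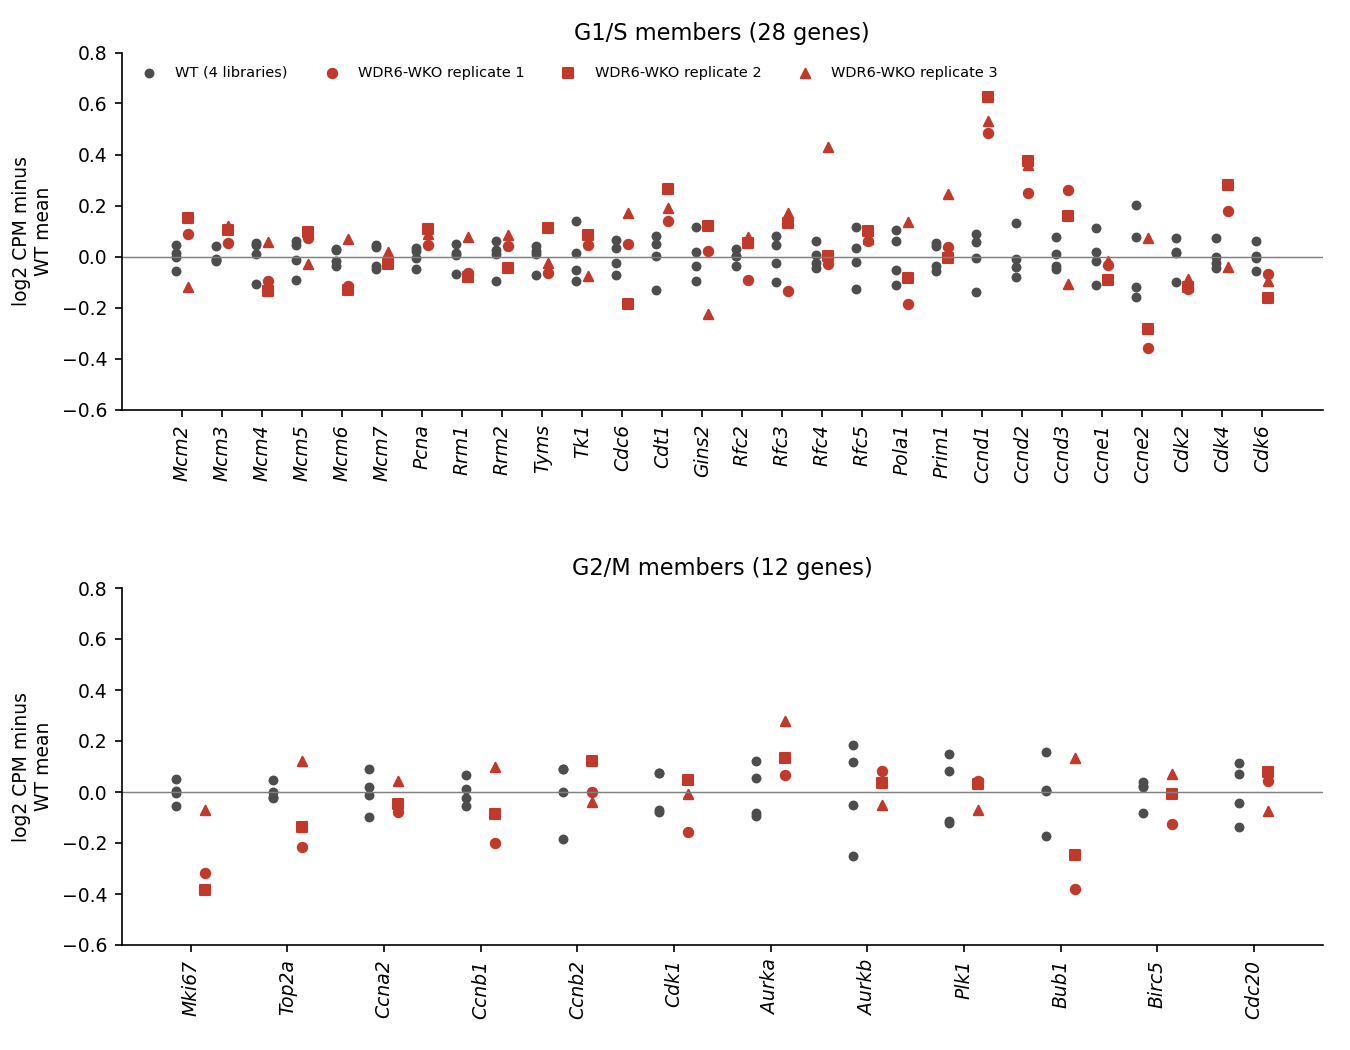
Level of each of the 40 genes in every library, as log2 CPM minus the mean of the 4 WT libraries (vertical axis), with the 28 G1/S genes above and the 12 G2/M genes below (horizontal axis). Grey points are WT libraries and red symbols are the 3 WDR6-WKO replicates; *Ccnd1* and *Ccnd2* lie above the WT points in all 3, and *Mki67* lies below them in all 3, with replicate 3 (triangle) nearest to WT.

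The D-type cyclins and their kinases held 2 of the 3 calls. *Ccnd1* lies on chromosome 7 from 144929931 to 144939925 (GRCm38, minus strand) and was counted at 122.0, 116.8, 124.5 and 106.5 CPM in WT and at 163.9, 180.8 and 169.3 CPM in WDR6-WKO. The lowest WDR6-WKO library was well above the highest WT library, so the groups did not overlap. The mean rose from 117.5 ± 7.96 CPM (SD, n = 4) to 171.3 ± 8.65 CPM (SD, n = 3), 45.8% higher (log2 fold change 0.54, SE 0.0591, 95% interval 0.42 to 0.67, adjusted p = 1.79e-05, edgeR). Without WDR6-WKO replicate 3 the log2 fold change was 0.55 (adjusted p = 5.32e-08, edgeR). An exact two-sided permutation test of log2 CPM gave p = 0.0286, the smallest value that 4 libraries against 3 can give.

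*Ccnd2*, on chromosome 6 from 127125162 to 127152193 (minus strand), was counted at 40.2, 39.1, 41.1 and 45.2 CPM in WT and at 49.2, 53.5 and 53.0 CPM in WDR6-WKO. Again all WDR6-WKO libraries were above all WT libraries. The gene was 25.2% higher (log2 fold change 0.32, SE 0.0659, 95% interval 0.18 to 0.46, adjusted p = 4.15e-03, edgeR; exact permutation p = 0.0286). *Ccnd1* and *Ccnd2* were called in all 16 alternatives to this fit. Per kilobase of transcript, *Ccnd1* (31.4 CPM per kilobase in WT) was more abundant than *Ccnd2* (6.54).

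*Ccnd3*, the third D-type cyclin gene, was counted at 87.1, 80.5, 83.2 and 79.9 CPM in WT and at 98.9, 92.3 and 76.7 CPM in WDR6-WKO. Replicates 1 and 2 were above the WT range and replicate 3 was below it, and the gene was not called (log2 fold change 0.11, SE 0.0738, adjusted p = 0.344, edgeR). *Cdk4*, a catalytic partner of D-type cyclins, showed a similar arrangement, with replicate 3 inside the WT range, at 153.8, 141.7, 146.2 and 143.9 CPM in WT and 165.6, 177.7 and 142.2 CPM in WDR6-WKO (log2 fold change 0.15, SE 0.0655, adjusted p = 0.160, edgeR). Without replicate 3 both genes were called, *Ccnd3* at 0.21 (adjusted p = 3.12e-03) and *Cdk4* at 0.23 (adjusted p = 2.80e-04) on the log2 scale. *Cdk6*, the other kinase partner, was counted at 239.3 to 259.6 CPM in WT and 222.3 to 237.4 CPM in WDR6-WKO. Its ranges did not overlap, but its log2 fold change of -0.11 (SE 0.0473) did not pass the adjusted test (adjusted p = 0.147, edgeR).

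Reads of neighbouring genes could enter some of these counts, since the strand setting of the counting was not given in the sources used here. Exons of *Ccnd1* overlap those of the neighbouring gene Lto1, named *Oraov1* in these counts, by 1100 bases. Of the 50-base words of *Ccnd1*, 27.2% are shared with other genes, and Lto1 shares the most of them. *Oraov1* was counted at 14.3 ± 0.540 CPM (SD, n = 4) in WT and 11.8 ± 1.12 CPM (SD, n = 3) in WDR6-WKO, a small level beside *Ccnd1*, with a negative log2 fold change that did not pass (-0.26, adjusted p = 0.0833, edgeR). *Ccnd3* shares 21.7% of its words with other genes, *Bysl* the most, and *Cdk4* shares 29.5%, with *Tspan31* the most. *Bysl* was counted at a mean of 40.9 CPM in WT and at 49.4, 46.0 and 42.6 CPM in WDR6-WKO (log2 fold change 0.17, adjusted p = 0.115, edgeR). *Tspan31* stood at means of 91.3 and 87.2 CPM (log2 fold change -0.07, adjusted p = 0.461, edgeR). How far these neighbours entered the counts of *Ccnd3* and *Cdk4* was not tested. *Ccnd2* overlaps 9330179D12Rik and *Gm43126* by 740 exon bases and shares 5.17% of its words with other genes, and neither neighbour was among the genes tested. *Mki67* overlaps no exon of another gene and shares 0.649%.

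**Figure D2:**
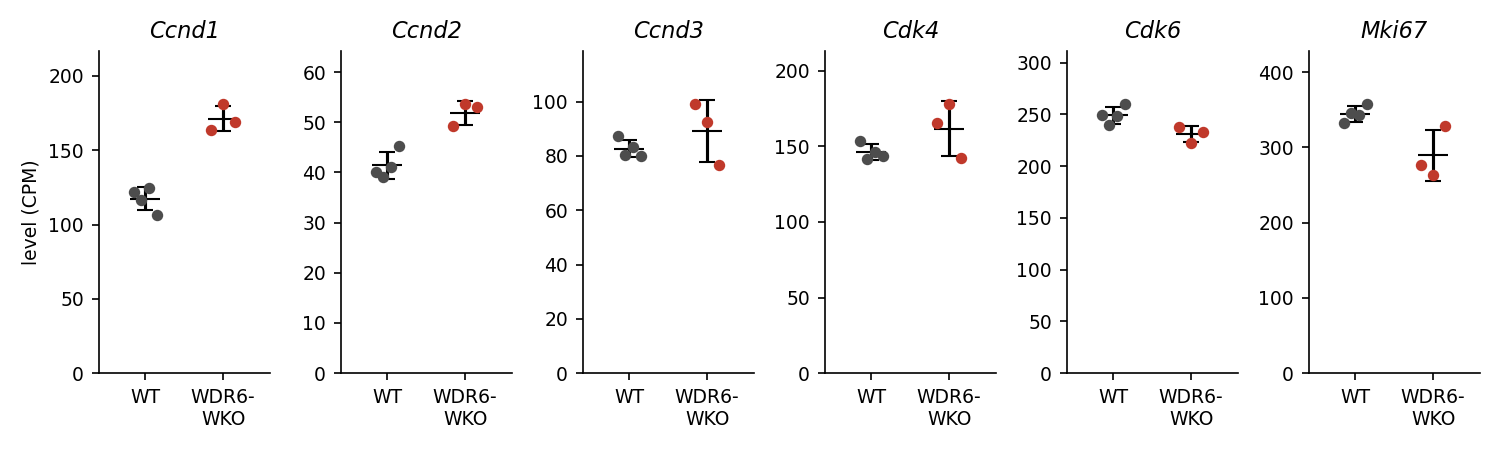
Level in CPM (vertical axes, each from 0) of the 3 D-type cyclin genes, their kinase partners *Cdk4* and *Cdk6*, and *Mki67* in WT (grey, n = 4) and WDR6-WKO (red, n = 3) libraries, ordered by replicate number from left to right, with mean and SD in black. The groups are separate for *Ccnd1*, *Ccnd2*, *Cdk6* and *Mki67* and overlap for *Ccnd3* and *Cdk4*.

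Cyclin E, which carries cells from G1 into S phase with its kinase CDK2, gave 0 calls of 3 genes. *Ccne1* stood at 43.5 ± 2.82 CPM (SD, n = 4) in WT and 42.0 ± 1.12 CPM (SD, n = 3) in WDR6-WKO, and *Cdk2* at 49.0 ± 2.42 and 45.3 ± 0.667 CPM. *Ccne2* was counted at 27.6, 35.3, 32.4 and 28.3 CPM in WT and at 24.0, 25.3 and 32.3 CPM in WDR6-WKO. Replicates 1 and 2 were below the WT range and replicate 3 was inside it. The log2 fold changes of *Ccne1*, *Cdk2* and *Ccne2* were -0.05, -0.11 and -0.19, with adjusted p-values of 0.670, 0.237 and 0.286 (edgeR). Without replicate 3, *Ccne2* was called at -0.33 on the log2 scale (adjusted p = 5.36e-03).

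The genes that license and fire replication origins gave 0 calls. *Cdt1*, which loads the MCM helicase together with *Cdc6*, came nearest. It was counted at 53.3, 54.6, 51.7 and 47.0 CPM in WT and at 56.8, 61.9 and 58.8 CPM in WDR6-WKO. The groups did not overlap, yet the log2 fold change of 0.20 (SE 0.0642) fell short of the threshold (adjusted p = 0.0576, edgeR; exact permutation p = 0.0286), and it passed without replicate 3 (adjusted p = 0.0152). *Cdc6* differed by 0.02 and *Gins2* by -0.02 on the log2 scale. Of *Gins2*, 70.4% of the 50-base words are shared with other genes, *Gse1* the most, so its counts are uncertain.

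The 6 subunits of the MCM2–7 helicase, which unwinds DNA at the fork, gave 0 calls. Their log2 fold changes lay between -0.06 (*Mcm4*) and 0.09 (*Mcm3*), and their 95% intervals held changes of -12.1% to 14.5%. *Mcm6*, the most abundant of them per kilobase, was counted at 220.1, 227.4, 226.7 and 217.3 CPM in WT and at 205.9, 203.5 and 233.8 CPM in WDR6-WKO. Here replicates 1 and 2 were below all WT libraries and replicate 3 above them, and without replicate 3 the gene was called at -0.12 on the log2 scale (adjusted p = 0.0216, edgeR). *Mcm3* was counted at 103.4 to 107.5 CPM in WT and 108.4 to 113.6 CPM in WDR6-WKO, separate ranges with an adjusted p of 0.236 (edgeR). Of the 50-base words of *Mcm7*, 34.2% are shared with other genes, *Gm5487* the most. Its exons overlap those of other genes by 557 bases, so its counts are less certain.

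The clamp, clamp loader and primase genes gave 0 calls of 7. *Pcna* was counted at 219.1, 223.6, 225.3 and 212.6 CPM in WT and at 226.8, 237.1 and 233.7 CPM in WDR6-WKO. All WDR6-WKO libraries were above all WT libraries, by little (log2 fold change 0.08, SE 0.0452, adjusted p = 0.274, edgeR; exact permutation p = 0.0286). Of the 50-base words of *Pcna*, 31.8% are shared with other genes. The pseudogene *Pcna-ps2* shares the most of them and was counted at 1.51 CPM in WT. The clamp loader genes *Rfc2* to *Rfc5* had log2 fold changes between 0.01 and 0.14. *Pola1* and *Prim1*, a polymerase and a primase subunit that start each new strand, stood at -0.04 and 0.09. The largest of these, *Rfc4*, rested on WDR6-WKO replicate 3, at 17.6 CPM against 12.7 to 13.7 CPM in WT and 12.8 and 13.1 CPM in the other two WDR6-WKO libraries.

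Deoxynucleotide supply gave 0 calls of 4 genes. *Rrm2* was counted at 261.1, 254.5, 252.0 and 233.8 CPM in WT and at 257.1, 242.8 and 264.9 CPM in WDR6-WKO, overlapping groups with a log2 fold change of 0.03 (SE 0.0511, adjusted p = 0.794, edgeR). *Rrm1*, the large subunit of the same enzyme, *Tyms*, thymidylate synthase, and *Tk1*, thymidine kinase, differed by -0.02, 0.01 and 0.02. Over these 4 genes the 95% intervals reached from -8.89% to 12.4%.

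**Figure D3:**
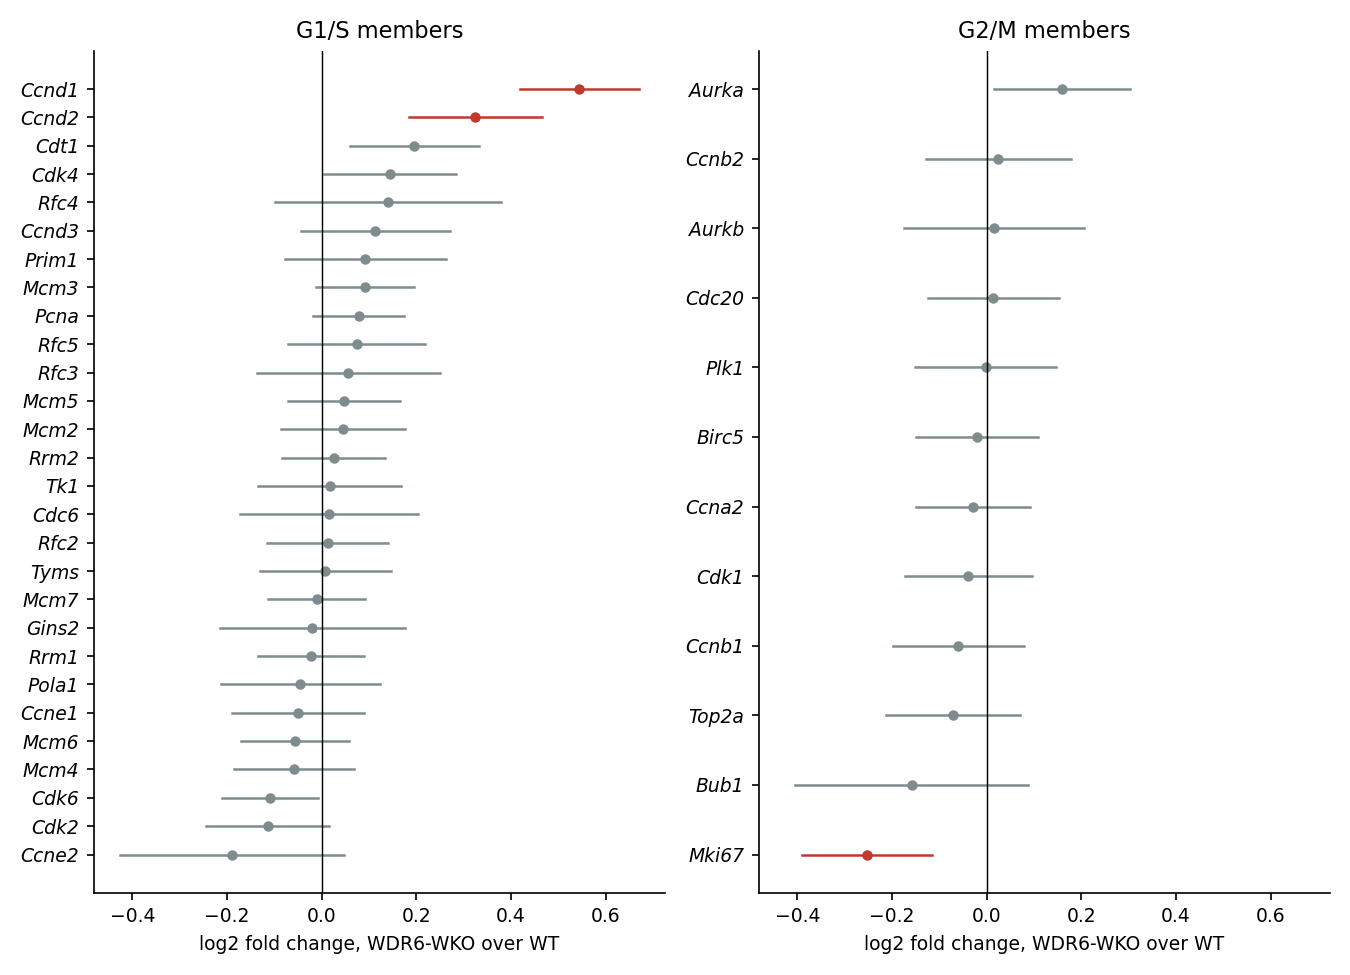
Log2 fold change of WDR6-WKO over WT (horizontal axis) for each G1/S gene (left) and G2/M gene (right) from edgeR, as points with 95% intervals, in red where the adjusted p was under 0.05. *Ccnd1* (0.54) and *Ccnd2* (0.32) stand at the top of the G1/S genes and *Mki67* (-0.25) at the bottom of the G2/M genes, and most other intervals span 0.

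Among the G2/M genes *Mki67* was called. It lies on chromosome 7 from 135689784 to 135716361 (minus strand), and its promoter is printed above. It was counted at 331.8, 345.3, 343.6 and 357.1 CPM in WT and at 276.5, 263.6 and 328.2 CPM in WDR6-WKO. All WDR6-WKO libraries were below all WT libraries, replicates 1 and 2 by a wide margin and replicate 3 narrowly. The level fell by 16.0% (log2 fold change -0.25, SE 0.0644, 95% interval -0.39 to -0.11, adjusted p = 0.0184, edgeR; exact permutation p = 0.0286). The call was less stable than those of the D-type cyclins. It held in 11 of 16 alternatives and was lost when WT replicate 2, 3 or 4 or WDR6-WKO replicate 1 or 2 was left out, with an adjusted p of up to 0.0930, while the log2 fold change stayed between -0.35 and -0.19.

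*Top2a*, the topoisomerase that untangles chromosomes before they separate, was counted at 268.1, 281.7, 269.2 and 272.5 CPM in WT and at 235.0, 248.3 and 297.0 CPM in WDR6-WKO. The 3 WDR6-WKO libraries straddled the WT range, replicates 1 and 2 below and replicate 3 above, for a log2 fold change of -0.07 (SE 0.0662, adjusted p = 0.536, edgeR). *Bub1*, a kinase of the spindle checkpoint, was counted at 50.2, 55.9, 50.4 and 44.5 CPM in WT and at 38.5, 42.1 and 54.8 CPM in WDR6-WKO, again with replicates 1 and 2 below WT and replicate 3 within its range (log2 fold change -0.16, SE 0.113, adjusted p = 0.397, edgeR). *Ccnb1*, cyclin B1, which drives entry into mitosis with *Cdk1*, was counted at 111.5 to 121.3 CPM in WT and at 100.9, 109.2 and 124.0 CPM in WDR6-WKO. Its log2 fold change was -0.06 (adjusted p = 0.600, edgeR), and 42.1% of its 50-base words are shared with other genes. The pseudogene *Ccnb1-ps* shares the most of them and was counted at 1.12 CPM in WT.

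The other mitotic cyclins and the kinase showed smaller differences, with log2 fold changes of -0.03 for *Ccna2*, 0.03 for *Ccnb2* and -0.04 for *Cdk1*. *Aurka*, the kinase of spindle poles, was the G2/M gene with the highest fold change, at 82.8, 86.8, 74.7 and 75.2 CPM in WT and 83.5, 87.5 and 96.8 CPM in WDR6-WKO. The ranges overlapped and the log2 fold change of 0.16 (SE 0.0677) did not pass (adjusted p = 0.138, edgeR). *Aurkb* and *Birc5*, of the chromosomal passenger complex, *Plk1*, a mitotic kinase, and *Cdc20*, an activator of the anaphase-promoting complex, all had log2 fold changes between -0.02 and 0.01.

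The 3 calls did not depend on WDR6-WKO replicate 3, but more genes were called when it was left out. Without it 12 of the 40 genes (8 G1/S, 4 G2/M) were called, against 28.6% of the 14796 genes then tested. The added calls were *Cdt1*, *Ccnd3*, *Cdk4*, *Cdk6*, *Ccne2* and *Mcm6* among the G1/S genes and *Top2a* (log2 fold change -0.18, adjusted p = 1.27e-03), *Ccnb1* (-0.14, adjusted p = 0.0286) and *Bub1* (-0.32, adjusted p = 1.42e-03) among the G2/M genes. The log2 fold change of *Mki67* without it was -0.35 (adjusted p = 9.46e-08). Replicate 3 held the highest WDR6-WKO level for 22 of the 40 genes (55%) and for 39.8% of all genes tested.

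The deviation of replicate 3 went with the base composition of transcripts. Across all genes, its log2 level relative to replicates 1 and 2 had a Spearman correlation of -0.518 with GC content, and across the 40 genes one of -0.796. Genes rich in A and T, *Ccne2* at 36.3% GC and *Bub1* at 41.0%, were high in this library, and GC-rich *Ccnd3* at 58.5% was low. *Cdt1*, the most GC-rich of the 40 at 58.8%, was not low. It stood at 58.8 CPM there, between the 56.8 and 61.9 CPM of replicates 1 and 2. The fold change between genotypes also went with transcript length and GC content within the 12 G2/M genes, with Spearman correlations of -0.888 and 0.769, against -0.211 and 0.145 across all genes. These correlations are across genes, which share their libraries, and are given as descriptions. With GC content and length corrected in each library, an alternative chosen after seeing the data, *Ccnd1* (0.54), *Ccnd2* (0.36) and *Mki67* (-0.19, adjusted p = 1.43e-03) were again the genes called, against 19% of all genes tested. With replicate 3 also left out, 7 were called, against 24.7%, namely these 3 with *Cdk4*, *Cdk2*, *Ccnb1* and *Bub1*. *Mcm6*, *Cdt1*, *Ccnd3*, *Ccne2*, *Cdk6* and *Top2a*, called without replicate 3, were not called when the correction was added. Whether base composition produced the differences between the genotypes was not tested.

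**Figure D4:**
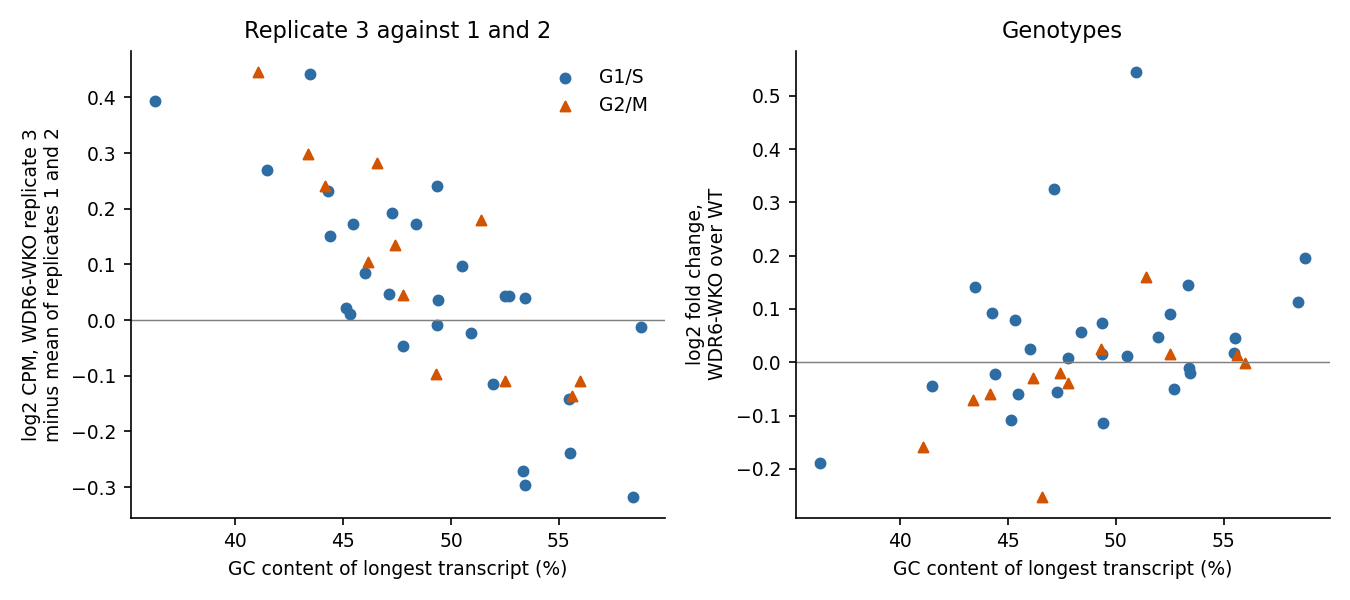
GC content of the longest transcript (horizontal axes, %) of the 28 G1/S (blue circles) and 12 G2/M (orange triangles) genes against the log2 CPM of WDR6-WKO replicate 3 minus the mean of replicates 1 and 2 (left) and against the log2 fold change of WDR6-WKO over WT (right). On the left the points fall from upper left to lower right (Spearman -0.796), and on the right *Ccnd1* and *Ccnd2* lie above the other genes of similar GC content.

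The rest of the pathway was read from lists of genes outside the 40, beside the 12.8% of all genes tested that were called. Without WDR6-WKO replicate 3 that share was 28.6%. Of 56 other replication genes, 2 were higher and 1 lower (5.36%). *Recql4*, a helicase of the RecQ family, rose by 0.38 and *Pole4*, a small subunit of DNA polymerase epsilon, by 0.23 on the log2 scale, and *Mcmbp*, a partner of MCM proteins, fell by 0.27. *Mcmbp* was the only call with the replicate block, and when any 1 library other than WDR6-WKO replicate 3 was left out, and 13 genes (8 higher, 5 lower) were called without that library. Of 59 other mitotic genes, 0 were higher and 2 lower (3.39%), the centromere protein gene *Cenpf* (-0.25, adjusted p = 0.0318, edgeR) and the spindle pole gene *Aspm* (-0.24, adjusted p = 0.0370, edgeR). The median over the mitotic list was -0.05. Like *Mki67*, both were below the WT range in all 3 WDR6-WKO libraries, but both calls were lost when any 1 library other than WDR6-WKO replicate 3 was left out. Without replicate 3, 17 of the 59 mitotic genes were called, 1 higher and 16 lower, against 28.6% of all genes then tested. Of 29 other cyclins and cyclin-dependent kinases, *Ccnt2* (-0.28) and *Cdk19* (-0.24), which act in transcription rather than in the cell cycle, were lower and 0 were higher. When any 1 library other than WDR6-WKO replicate 3 was left out, *Ccnt2* was the only call, and 6 genes (1 higher, 5 lower) were called without that library.

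The retinoblastoma and E2F family is acted on by D-type cyclins. It held 3 lower calls and 0 higher among 17 genes (17.6%), against 12.8% of all genes tested. *E2f8*, a repressing E2F, was counted at 44.9 ± 1.93 CPM (SD, n = 4) in WT and 36.0 ± 3.68 CPM (SD, n = 3) in WDR6-WKO (log2 fold change -0.32, SE 0.0733, adjusted p = 9.10e-03, edgeR). *Tfdp2*, an E2F partner, and *Rbl2*, the pocket protein p130, fell by 0.26 each (adjusted p = 0.0301 and 0.0407, edgeR). The related pocket protein genes *Rb1* (-0.32, adjusted p = 0.0899) and *Rbl1* (-0.24, adjusted p = 0.0606) had negative values that did not pass. The activating *E2f1* stood at 35.3 CPM in WT and 37.5 CPM in WDR6-WKO (adjusted p = 0.516), and the log2 fold changes of *E2f2* and *E2f3* were -0.07 and -0.04. The calls of this family were not stable. *E2f8* was the only call without WT replicate 1, 3 or 4 or WDR6-WKO replicate 1. *E2f8* and *Tfdp2* were called without WT replicate 2, and 0 genes were called without WDR6-WKO replicate 2. Without WDR6-WKO replicate 3, 6 were called, all lower, against 28.6% of all genes then tested. With the GC and length correction 5 were called, all lower, against 19% of all genes tested. With replicate 3 also left out 6 were called, all lower, against 24.7%. *Rb1* and *Rbl1* were among the calls without replicate 3 and in both fits with the correction.

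Inhibitors and brakes of the cycle held 7 higher and 0 lower calls among 22 genes (31.8%), against 12.8% of all genes tested. *Cdkn1a*, the CDK inhibitor p21, was counted at 181.7 ± 1.70 CPM (SD, n = 4) in WT and 212.8 ± 18.3 CPM (SD, n = 3) in WDR6-WKO (log2 fold change 0.23, SE 0.0554, adjusted p = 0.0130, edgeR), and its groups did not overlap. The other genes called encode stress-responsive proteins. *Gadd45a*, *Gadd45g* and *Gadd45b*, growth arrest and DNA damage genes, rose by 1.07, 0.78 and 0.48 on the log2 scale, *Plk3* and *Plk2*, polo-like kinases of stress responses, by 0.37 and 0.31, and *Mdm2*, the ubiquitin ligase of p53, by 0.16. *Cdkn1b*, the inhibitor p27, was near equal at 43.0 CPM in WT and 43.7 CPM in WDR6-WKO, and *Cdkn2a* was barely counted (0.377 and 0.649 CPM). *Trp53*, which encodes p53 itself, stood at 0.12 (adjusted p = 0.164, edgeR). Without WT replicate 4 or WDR6-WKO replicate 2, *Gadd45a*, *Gadd45g*, *Plk2* and *Plk3* alone were called. The *Cdkn1a* call was also lost without WDR6-WKO replicate 1. The *Mdm2* call was lost when any 1 library other than WDR6-WKO replicate 3 was left out. Lower calls appeared without WDR6-WKO replicate 1 (1 of 5 calls) or replicate 3 (2 of 10). With the GC and length correction 7 were higher and 3 lower, with *Btg2*, *Tob1* and *Tob2* added. With replicate 3 also left out, 8 were higher and 1 lower.

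The growth entry list holds early response and growth factor genes upstream of cyclin D, together with genes of other kinds such as *Skp2* and *Rbx1*. It held 5 higher and 3 lower calls among 25 genes (32%), against 12.8% of all genes tested. *Atf3*, a stress-induced transcription factor, rose from 21.3 ± 2.31 CPM (SD, n = 4) to 40.6 ± 2.73 CPM (SD, n = 3), a log2 fold change of 0.93 (SE 0.0855, adjusted p = 3.25e-06, edgeR). *Fosl1* and *Fosb*, AP-1 subunits, rose by 0.59 and 0.70, and *Myc*, the growth regulator, by 0.30 (adjusted p = 1.56e-03, edgeR). In the opposite direction *Egr1*, an immediate early gene, fell by 0.49, and *Egfr*, the receptor for epidermal growth factor, fell by 0.44, from 550.2 ± 27.0 CPM (SD, n = 4) to 406.5 ± 19.2 CPM (SD, n = 3). *Atf3*, *Fosl1*, *Myc*, *Egr1* and *Egfr* were called whichever library was left out. They were the only calls without WDR6-WKO replicate 1. Without WDR6-WKO replicate 3, 17 genes (11 higher, 6 lower) were called, against 28.6% of all genes then tested.

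**Figure D5:**
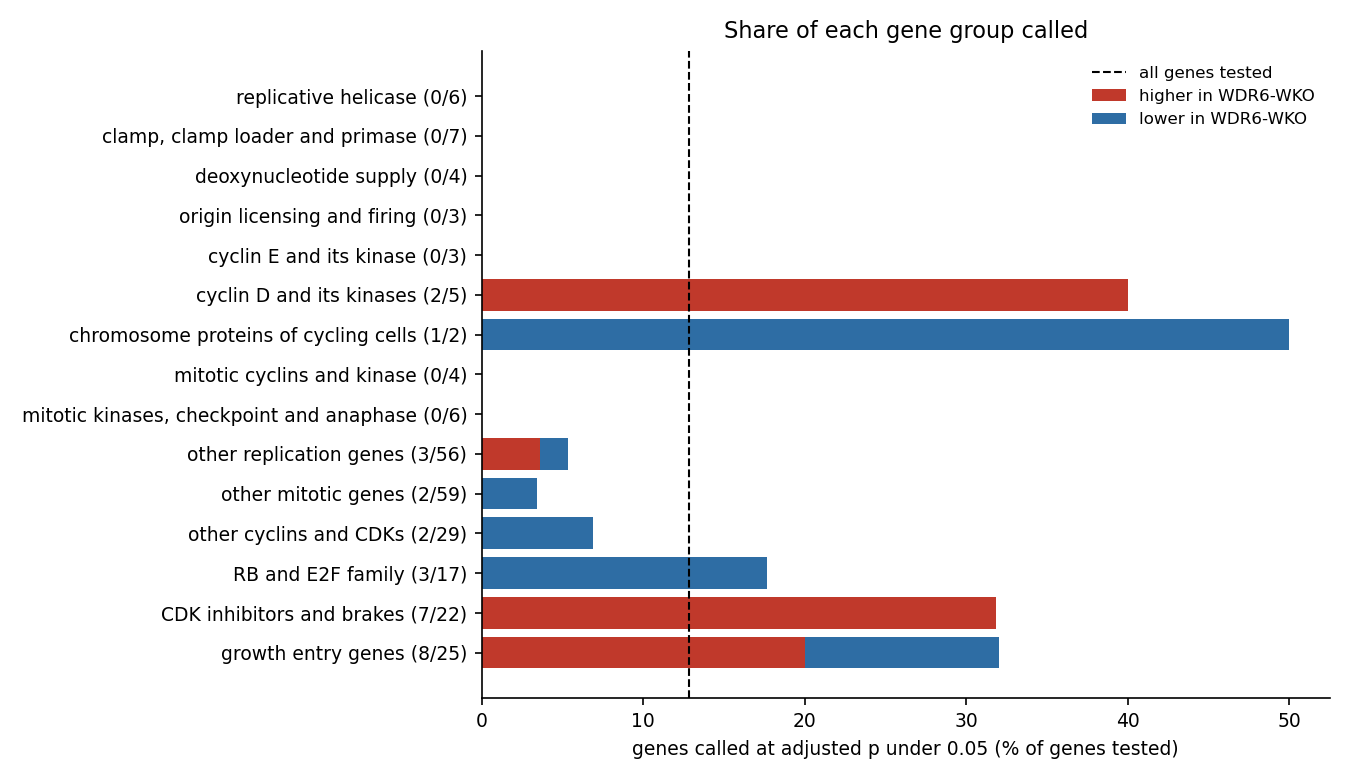
Share of the genes tested in each group of cell cycle genes that was called at an adjusted p under 0.05 (horizontal axis, %), with calls higher in WDR6-WKO in red and lower in blue, and the number called over the number tested in brackets. The dashed line is the 12.8% of all genes tested; the top 9 groups are the 40 genes by role, of which 7 held 0 calls.

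Markers of other liver cells moved between the genotypes too. Their counts stand beside 12.8% of all genes tested, or 28.6% without WDR6-WKO replicate 3. Of 15 Kupffer cell and macrophage markers 6 were higher and 0 lower, among them *Lyz2* (0.64) and *Ctss* (0.47), and the list summed to 1055 to 1125 CPM in WT and 1219 to 1431 CPM in WDR6-WKO. Without WDR6-WKO replicate 3, 10 of them were called, all higher. Of the list 14 had a positive log2 fold change and 1, *Timd4*, a negative one (-0.48, adjusted p = 0.0880, edgeR). *Timd4* stood at 2.87 to 4.02 CPM in WT and 2.29 to 2.84 CPM in WDR6-WKO, separate ranges. With the GC and length correction 7 of the 15 were called, *Timd4* among them, 6 higher and 1 lower. The defining marker *Clec4f* stood at 117.3 and 125.7 CPM, a log2 fold change of 0.10 (adjusted p = 0.311, edgeR). Of 8 cholangiocyte markers *Spp1* (0.31) and *Sox9* (0.20) were higher, and the sum was 3173 to 3471 CPM in WT and 3844 to 4417 CPM in WDR6-WKO. Most of this sum was *Spp1*, and the other 7 markers summed to 332.2 to 364.5 CPM in WT and 335.2 to 380.1 CPM in WDR6-WKO, overlapping ranges. *Sox9* was no longer called without WT replicate 1, 2 or 3 or WDR6-WKO replicate 1 or 2, and without WDR6-WKO replicate 3 there were 4 calls (3 higher, 1 lower). *Krt19* had a log2 fold change of -0.05, and *Epcam* stood at 0.849 CPM in WT. Of 14 stellate cell and fibroblast markers 2 were higher (*Acta2* and *Dcn*) and 2 lower (*Rgs5* and *Ecm1*), with sums of 937.9 to 973.0 and 929.2 to 1008 CPM, and without WDR6-WKO replicate 3 there were 7 calls. Of 15 endothelial markers 1 was lower (*Tek*), with sums of 474.8 to 543.4 and 443.5 to 528.2 CPM, and this call was lost without WT replicate 3 or 4 or WDR6-WKO replicate 2. Of 2 lymphocyte markers tested 0 were called by edgeR (1 without WT replicate 4 or WDR6-WKO replicate 3, and 1 at an unadjusted p under 0.05), with sums of 13.3 to 16.7 and 15.2 to 16.0 CPM, and the other 11 were not analysed here. The part of these cells in the cell cycle differences was not tested.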

How the data were processed

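RNA of 7 hepatocyte libraries (4 WT, 3 WDR6-WKO) was prepared with the NEBNext Ultra kit and sequenced on an Illumina HiSeq. The table the authors deposited holds raw read counts by gene symbol. The submitters' processing notes name Bowtie2 2.2.3 and mm10, and the counting tool, annotation and strand setting were not given in the sources used here. In 21 rows the symbol had become a spreadsheet date. No column of another sample was present.

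Counts were scaled by TMM and tested with edgeR 4.0.16 in R 4.3.3 (filterByExpr, robust quasi-likelihood test, two-sided, without covariates), with Benjamini-Hochberg adjustment over 14779 genes. Genes were called at an adjusted p under 0.05. SE and 95% intervals were computed from the F statistic of that test. Single genes were also compared by an exact two-sided permutation test of log2 CPM (prior count 0.5) over all 35 assignments of the libraries, of which the smallest p is 0.0286. The scripts were tested on simulated data. Lengths, GC content, overlaps and coordinates came from GENCODE M21 (GRCm38), and promoters from RefSeq (GRCm38.p6).

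The 40 genes and all lists were chosen with earlier results of these data known. All 40 are accounted for, with full statistics for those called. From each further gene list values are given for up to 6 called genes with the smallest p, and from the RB and E2F and inhibitor lists for any gene. From the cell type marker lists some genes are named, whether called or not. Alternatives were DESeq2 1.42.0, limma-voom (limma 3.58.1), scaling by median-of-ratios or by library size alone, the filter removed or set to 10 counts in each sample, a replicate block, and leaving out each library. A correction for GC content and length, with and without WDR6-WKO replicate 3, was chosen after seeing the data. Precision was set by the number of libraries and by 17816913 to 23668940 counted reads per library.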

Additional observations from a re-analysis of the deposited data

Results flagged for a closer look

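*Mcm3*, a helicase subunit, had a WT library far from the others. Its level was 107.5 CPM in WT replicate 4 and 103.4 to 103.7 CPM in the other three WT libraries, so that 0.913 of the range lay between this library and its nearest neighbour, above the 95% limit of Dixon's test for 4 samples. It was the only such case among 41 genes examined in WT, where chance gives about 1 in 20, and the gap is small beside the level.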

How the results depend on the processing

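*Ccnd1* and *Ccnd2* kept their calls in 16 of 16 alternatives, with log2 fold changes of 0.50 to 0.57 and 0.30 to 0.38, and *Wdr6* in 16 of 16 (-4.27 to -4.15). *Mki67* kept its call in 11. Leaving out single libraries, the number of genes called ranged from 570 to 2150 higher and from 462 to 2083 lower, the members called from 2 to 12 (G1/S 2 to 8, G2/M 0 to 4), and the other lists from 1 to 13 (replication), 0 to 17 (mitotic), 0 to 6 (RB and E2F), 4 to 10 (inhibitors and brakes), 5 to 17 (growth entry) and 1 to 6 (other cyclins and CDKs). The marker counts ranged from 4 to 10 (Kupffer), 0 to 2 (endothelial), 3 to 7 (stellate), 1 to 4 (cholangiocyte) and 0 to 1 (lymphocyte). The highest member count and the highest counts of genes came without WDR6-WKO replicate 3. The study's thresholds called 1 member. Library sizes alone changed the split of all genes to 1212 higher and 696 lower, called *Cdt1* (0.22, adjusted p = 0.0320, edgeR) and moved the replication list to 6 and the mitotic list to 1. The GC and length correction, chosen after seeing the data, gave 1270 genes higher and 1545 lower, and 7 (replication), 6 (mitotic), 5 (RB and E2F) and 6 (other cyclins and CDKs) calls. With WDR6-WKO replicate 3 also left out it gave 1711 higher and 1942 lower, 7 members (4 G1/S, 3 G2/M), and 10, 13, 6 and 8 calls in the same lists and 14 among growth entry genes, and the log2 fold change of *Cdk6* reversed to 0.021 (adjusted p = 0.735). Why these counts moved was not tested.

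With the replicate number as a block, 945 genes were higher and 817 lower, 3 members were called (*Ccnd1*, *Ccnd2* and *Mki67*) and the replication list held 1 call. Whether the numbers pair the libraries is not known from the labels. The deviations of libraries with the same number correlated at 0.0311, 0.0207 and 0.0355, and those of other pairs at -0.120 to 0.117. Not every library correlated best with its own number. Correlations this small, from 4 and 3 libraries, cannot decide whether the libraries were paired. Between 0 and 11 members changed sign per alternative, none of them among the 3 called. *Rfc4* went from 0.14 to -0.02 without WDR6-WKO replicate 3, and to -0.06 with the GC and length correction as well. Depth limits the precision of members at low levels, such as *Rfc4* and *Cdc6*, more than of abundant ones.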
